A study of Rattus norvegicus with 12 samples.

Results

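Carbonic anhydrases are zinc enzymes that turn carbon dioxide and water into bicarbonate and a proton, and back. Their genes were followed in 12 RNA sequencing libraries of cultured rat Müller cells, the main glia of the retina. A gene was taken as a member when its symbol was Car followed by a number and, where present, a or b. Of 17315 genes in the count files, 15 had such a symbol, and the 10 with the most counts summed over all libraries were kept: Car9 (46320 counts), Car5b (12508), Car11 (3637), Car3 (1898), Car2 (725), Car8 (629), Car13 (515), Car12 (228), Car6 (105) and Car14 (65). Car14 was the last member inside this limit. Just outside it lay Car7 with 14 counts and Car5a with 11, followed by Car1 with 4, Car4 with 3 and Car15 with 0. The choice rests on these sums, which are given as a description. Counts are not divided by transcript length here, so levels are compared between libraries for 1 gene and never between genes.

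All cells came from Sprague-Dawley rats and grew in the same base medium with the same glucose and glutamine. Primary Müller cell cultures gave 4 libraries, from pups of postnatal day 2-4, at passage 4 (replicates 1 and 2) or 3 (replicates 3 and 4), in 20% serum with gentamicin (87 mg/L, an antibiotic) and amphotericin B (2.2 mg/L, an antifungal). SIRMu-1, a line of spontaneously immortalized Müller cells of the same donor age, gave 5 libraries in 20% serum. Replicate 1 was at passage 6, replicates 2, 3 and 4 at passage 11 and replicate 5 at passage 20, and of these only replicates 3 and 5 had the gentamicin and amphotericin B. The adult line rMC-1 gave 3 libraries, at passage 23, 26 and 26, in 10% serum without these drugs. SIRMu-1 and primary cultures thus also differed in passage and in part in drugs. Donor age, passage and serum cannot be told apart from the cell source in any comparison with rMC-1, nor can the drugs in that with primary cultures. Each line is 1 line, and the labels do not say which primary cultures shared an animal. The p-values thus set differences between groups against the scatter of these libraries, part of which may be technical. They do not extend to other lines.

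Carbonic anhydrases differ in where they work. Car2, Car3 and Car13 are cytosolic enzymes, of which Car2 is very fast and is the classical carbonic anhydrase of Müller glia in the retina, while Car3 is slow and best known from skeletal muscle and fat. Car5b works in mitochondria. Car9, Car12 and Car14 span the plasma membrane and act on its outer face, and Car9 is a well known target of the hypoxia-inducible factors (HIF). Car6 is secreted. Car8 and Car11 are carbonic anhydrase-related proteins, which have the fold of the family but lack the catalytic activity. In Müller glia the enzymes help to handle the carbon dioxide that retinal neurons release and to set the pH around them, together with bicarbonate transporters.

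The start regions of the tested members with an entry are shown because Car9 is a textbook case of control by oxygen, and because these members moved in different ways between the cultures. The letters come from RefSeq on assembly GRCr8, a later build than the rn6 of the counts, and run from 250 bases before the annotated start to 30 bases after it. The table held 5 of the 10 members (Car9, Car5b, Car11, Car12 and Car14). Car2, Car3, Car8, Car13 and Car6 are named only. Capitals mark each match to the core of the HIF response element, ACGTG or GCGTG, on either strand (CACGT or CACGC when read on the other one). The regions are chr5:62558774-62559053 for Car9, chr8:76169565-76169844 for Car12, chrX:34118776-34119055 for Car5b and chr1:105306290-105306569 for Car11, all on the plus strand.
Car9: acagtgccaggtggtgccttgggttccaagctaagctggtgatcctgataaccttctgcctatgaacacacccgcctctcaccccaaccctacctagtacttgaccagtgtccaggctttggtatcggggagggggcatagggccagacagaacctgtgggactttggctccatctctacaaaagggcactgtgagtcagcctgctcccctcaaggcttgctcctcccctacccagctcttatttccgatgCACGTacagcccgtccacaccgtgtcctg
Car12: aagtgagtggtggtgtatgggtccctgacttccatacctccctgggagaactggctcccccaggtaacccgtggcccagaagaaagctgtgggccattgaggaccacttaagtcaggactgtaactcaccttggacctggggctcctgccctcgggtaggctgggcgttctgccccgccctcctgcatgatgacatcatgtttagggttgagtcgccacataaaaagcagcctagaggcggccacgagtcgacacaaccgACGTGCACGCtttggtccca
Car5b: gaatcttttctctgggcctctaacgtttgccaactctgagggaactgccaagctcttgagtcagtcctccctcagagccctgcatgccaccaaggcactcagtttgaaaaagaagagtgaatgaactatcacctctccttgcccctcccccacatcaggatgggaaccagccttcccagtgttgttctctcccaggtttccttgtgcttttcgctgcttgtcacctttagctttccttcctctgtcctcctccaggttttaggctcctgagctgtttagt
Car11: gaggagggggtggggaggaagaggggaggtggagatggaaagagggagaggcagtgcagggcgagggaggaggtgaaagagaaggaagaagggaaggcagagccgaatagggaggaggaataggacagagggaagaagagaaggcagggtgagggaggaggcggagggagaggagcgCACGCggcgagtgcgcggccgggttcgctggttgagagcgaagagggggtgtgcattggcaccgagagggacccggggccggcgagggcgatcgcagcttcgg
Car9 had 1 match, CACGT, at bases 2 to 6 after the start. Car12 had 2 matches after its start, ACGTG at bases 11 to 15 and CACGC directly behind it at bases 16 to 20. Car11 had CACGC at bases 73 to 69 before the start, Car5b had no match, and Car14 (not shown) had CACGT at bases 54 to 50 before it. Such short matches are frequent. Of 33469 windows of this length in the table, 18.2% held ACGTG, 28.3% held GCGTG and 39.7% held either. A match is thus a description, and binding was not tested. The windows differed in CpG content, with 19 CpG in that of Car11, 11 in that of Car12, 6 in that of Car9 and 2 in that of Car5b, where the median over all windows was 6.

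Depth allowed rare transcripts to be seen. Reads in genes came to 22582345 to 38125630 per library, and levels are given as counts per 1000000 of them (CPM). TMM factors, a trimmed mean of fold changes, adjust that total for the make-up of each library. Of the 10 members, 8 passed the filter on low counts and were tested, and Car6 and Car14 did not pass. Car2, Car3, Car8 and Car13 passed through the primary libraries, and of the lines only 1 rMC-1 library reached the minimum, for Car3. They thus had to differ, and their number is no support for a loss of the family. Car12 reached it through its 3 rMC-1 libraries, with 2 primary libraries and no SIRMu-1 library at the minimum, so it had to be high there, and its call between the lines is no independent result. The label of Müller cells was checked against 18 marker genes of these glia. Their summed level was 8590 to 10100 CPM in primary libraries, 3790 to 5130 in SIRMu-1 and 2390 to 2520 in rMC-1, and most of it was vimentin. Against primary cultures, rMC-1 had 10 of 16 tested markers lower and 3 higher (edgeR adjusted p under 0.05). Of all genes, 38.9% were lower and 31.9% higher there. The 3 were Lhx2, Hes1 and Rlbp1, the last passing the filter through rMC-1 alone. SIRMu-1 had 10 lower and 0 higher (24.4% and 21.7% of all genes). Sox9 had 4 counts in rMC-1. Sox2 had 0 in SIRMu-1, and 14.9 CPM in rMC-1 against 2.49 in primary libraries. The channel genes Aqp4 and Kcnj10, which mark mature Müller glia, were near or at 0, with 2 and 13 counts in all primary libraries together, none in SIRMu-1, and 0 and 9 in rMC-1. Fibroblast and pericyte genes summed to 40600 to 144000 CPM in primary libraries, 52500 to 71900 in SIRMu-1 and 5370 to 7680 in rMC-1.

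**Figure D1:**
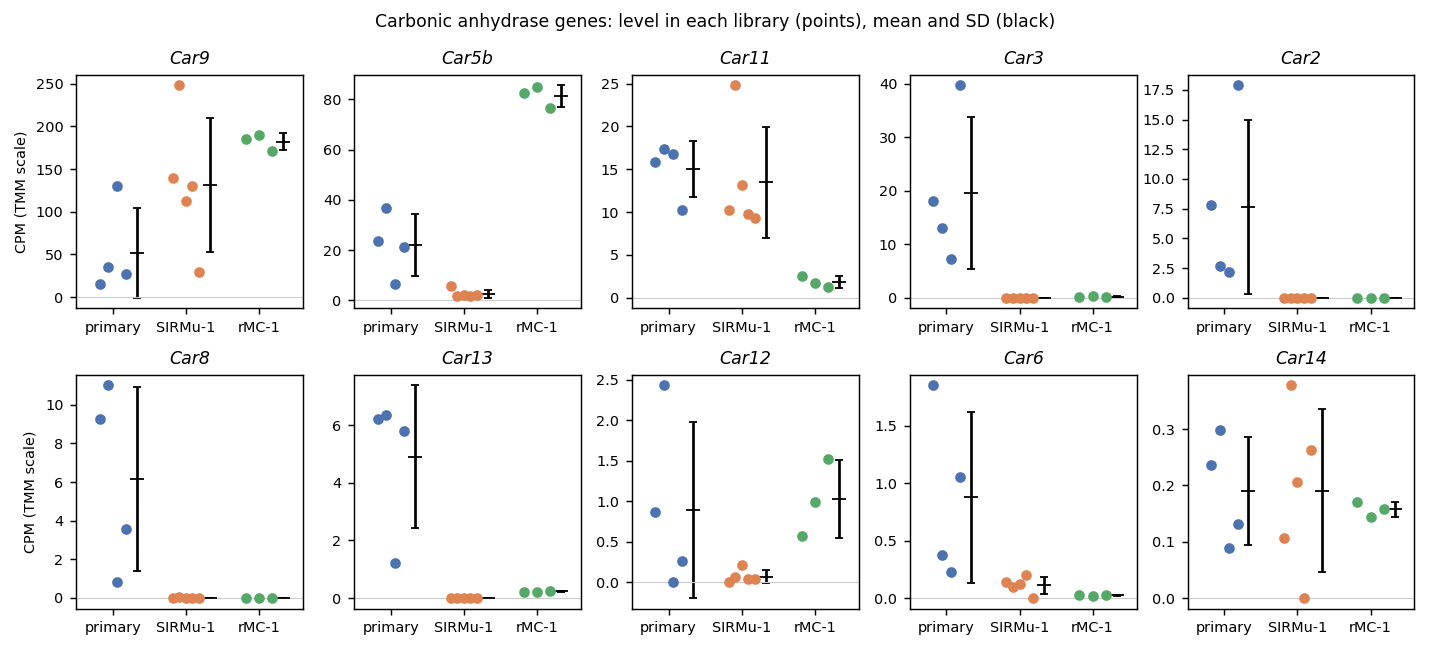
Level of each of the 10 carbonic anhydrase genes (CPM on the TMM scale, linear axes that differ between panels) in 4 primary, 5 SIRMu-1 and 3 rMC-1 libraries. Points are libraries, and the black mark beside them is the mean with its SD. Car2, Car3, Car8 and Car13 stand above 0 mainly in primary libraries, Car5b is highest in rMC-1, and Car11 is low there.

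Against the primary cultures, SIRMu-1 had 6 of the 8 tested members lower, 0 higher and 2 past no threshold (edgeR adjusted p under 0.05). Over all 11321 genes tested, 46.1% were called in this comparison, 24.4% lower and 21.7% higher. In rMC-1, 5 members were lower, 2 higher and 1 not past the threshold, where 70.8% of all genes were called, 38.9% lower and 31.9% higher. Both comparisons use the same 4 primary libraries, so their calls are not independent. Between the lines, SIRMu-1 had 4 members lower and 1 higher than rMC-1, 1 not past the threshold and 2 with too few counts for a fold, against 63.2% of all genes called (30.5% lower, 32.7% higher). The median log2 fold change of all genes was -0.0162, -0.149 and 0.0297 in these comparisons, in the order given. Scaling by library totals alone moved the median of rMC-1 against primary to 0.323 and that of SIRMu-1 against rMC-1 to -0.403. With it, the calls of all genes in rMC-1 against primary split into 5078 higher and 3130 lower, in place of 3614 and 4403, and those of SIRMu-1 against rMC-1 into 2324 higher and 5227 lower, in place of 3702 and 3455. No member changed direction with that scaling.

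**Figure D2:**
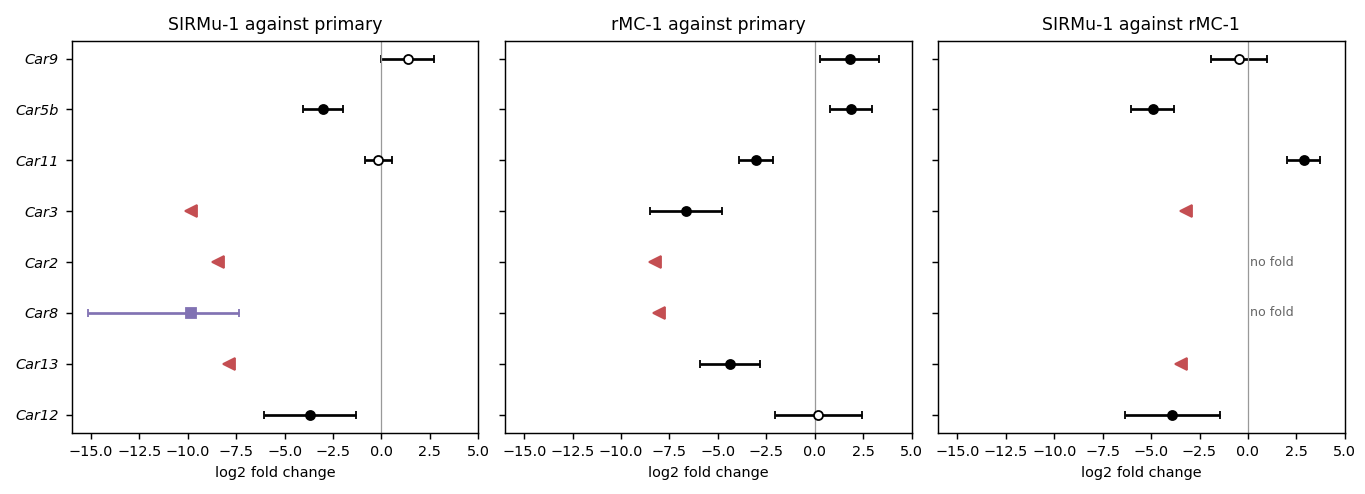
Log2 fold change of the 8 tested members in each comparison of groups. Circles are edgeR estimates with 95% intervals (filled where the adjusted p is under 0.05), red triangles are lower bounds on the size of a decrease where a group had 0 counts, and the square is the ratio of a group with 1 count with its exact counting interval. Car5b lies on opposite sides of 0 in the lines, and the interval of Car11 excludes 0 in rMC-1 and includes it in SIRMu-1.

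The membrane enzyme Car9 was the member with the most counts, and its level was uneven among cultures of the same kind. Primary libraries 1 to 4 had 15.8, 35.0, 130.1 and 26.6 CPM (51.9 ± 52.8, SD, n = 4). SIRMu-1 libraries 1 to 5 had 139.6, 248.3, 112.0, 130.2 and 28.9 CPM (131.8 ± 78.4, SD, n = 5). The rMC-1 libraries had 185.6, 189.6 and 170.9 CPM (182.0 ± 9.82, SD, n = 3). Primary replicate 3 reached the level of most SIRMu-1 libraries, and SIRMu-1 replicate 5, at the highest passage, lay among the other primary libraries, whereas every rMC-1 library was above every primary one. In rMC-1 the log2 fold change from primary was 1.81 ± 0.70 (SE; 95% interval 0.28 to 3.34, edgeR adjusted p = 0.0356). In SIRMu-1 it was 1.35 ± 0.64 (-0.04 to 2.73, edgeR adjusted p = 0.103), which did not pass the threshold. The lines were not shown to differ from each other in Car9, with -0.47 ± 0.66 in SIRMu-1 against rMC-1 (-1.91 to 0.98, edgeR adjusted p = 0.56).

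Both Car9 comparisons with primary cultures hang on single libraries. Without primary replicate 3, Car9 was called in SIRMu-1 too (log2 fold change 2.35, edgeR adjusted p = 0.00544), as it was without SIRMu-1 replicate 5 (1.58, edgeR adjusted p = 0.0399) and with DESeq2 (1.31, adjusted p = 0.0483). Over its 20 alternatives the adjusted p of SIRMu-1 against primary ran from 0.00544 to 0.692. The change was smallest with the 2 SIRMu-1 libraries that had the drugs, as all primary cultures did (0.45 in place of 1.35, edgeR adjusted p = 0.692), and largest without primary replicate 3. The call in rMC-1 held in 12 of 19 alternatives. It was lost without primary replicate 1 (1.51, edgeR adjusted p = 0.0763), 2 (1.66, 0.0826) or 4 (1.59, 0.0821), on leaving out rMC-1 library 1 (1.87, 0.0588), 2 (1.86, 0.0606) or 3 (1.93, 0.0528), and with the libraries that share a file-name code added up (1.66, 0.096). Without primary replicate 3 the rMC-1 change was 2.82 (edgeR adjusted p = 0.00144).

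Other genes of the HIF pathway were read beside Car9. The 14 pathway genes in the files summed to 1320, 1740, 2280 and 1460 CPM in primary libraries 1 to 4, and to 1550, 2550, 1770, 1510 and 1240 CPM in SIRMu-1 libraries 1 to 5. Most of each sum came from P4ha1, which encodes a prolyl hydroxylase of collagen, and Vegfa, the vascular growth factor of this pathway. P4ha1 had 557.2, 705.5, 1423 and 595.4 CPM in primary libraries, the order of Car9, and 771.6, 1335, 1000, 823.6 and 506.2 CPM in SIRMu-1. Vegfa too had its highest SIRMu-1 level (792.3 CPM) in replicate 2 and its lowest (196.4 CPM) in replicate 5. Most other genes of the list did not follow Car9. Of the 14, 10 were highest in SIRMu-1 replicate 5, the library with the least Car9, among them Hif1a (185.9 CPM against 119.4 to 142.4), Epas1 (32.5 CPM against 6.15 to 10.4) and Ndrg1 (12.1 CPM against 1.32 to 3.47). Primary replicate 3, with the most Car9, was the highest library for 4 of the 14 and the lowest for 4, among these Slc2a1 (79.1 CPM against 90.2 to 183.8) and Epas1 (6.08 CPM against 17.2 to 52.6). The sum was 1230 to 1390 CPM in rMC-1, where Car9 was high and even. The part of the pathway in the spread of Car9 was not tested.

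Car12, a second membrane enzyme also known as hypoxia-responsive, was rare. Primary libraries had 0.868, 2.43, 0 and 0.264 CPM, and replicate 3, the one with the most Car9, had no Car12 count. SIRMu-1 libraries had 0, 0.0629, 0.206, 0.0329 and 0.0375 CPM, 9 counts in all. The rMC-1 libraries had 0.570, 0.989 and 1.53 CPM, 126 counts in all, and lay above every SIRMu-1 library. SIRMu-1 and primary libraries overlapped. The log2 fold change of Car12 was -3.70 ± 1.09 in SIRMu-1 against primary (edgeR adjusted p = 0.0162), -3.90 ± 1.12 in SIRMu-1 against rMC-1 (edgeR adjusted p = 0.00976) and 0.19 ± 1.02 in rMC-1 against primary (-2.03 to 2.42, edgeR adjusted p = 0.871). The first call was lost without primary replicate 2, which holds 65 of the 93 primary counts (-2.49, edgeR adjusted p = 0.0785), with file-name codes summed (-3.41, 0.164), with the replicate block (-3.47, 0.0692) and with the drug libraries of SIRMu-1 alone (-2.85, 0.2). The second was lost with codes summed (-4.29, edgeR adjusted p = 0.0861) and with the drug libraries alone (-3.06, 0.153).

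Car14, the third membrane enzyme and known from Müller glia and pigment epithelium of the retina, was at the edge of detection in every group. It had 0.0894 to 0.299 CPM in primary libraries (19 counts), 0 to 0.378 in SIRMu-1 (27 counts) and 0.144 to 0.171 in rMC-1 (19 counts). The groups overlapped, and the ratio between SIRMu-1 and primary over the pooled counts was 1.02 (exact 95% counting interval 0.538 to 1.91). Car4, another membrane-bound member of the family, had 3 counts in all libraries together.

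Mitochondrial Car5b moved in opposite directions in the lines. Primary libraries had 23.5, 36.6, 6.53 and 21.5 CPM (22.01 ± 12.3, SD, n = 4). SIRMu-1 libraries had 5.58, 1.60, 2.27, 1.74 and 2.25 CPM (2.69 ± 1.64, SD, n = 5), all under the lowest primary library. The rMC-1 libraries had 82.7, 84.8 and 76.5 CPM (81.3 ± 4.32, SD, n = 3), all above the highest. The 3 groups of libraries thus did not overlap at all, which was also so for Car3 and Car13. Its log2 fold change was -3.03 ± 0.47 in SIRMu-1 against primary (-4.05 to -2.01, edgeR adjusted p = 0.000354) and 1.88 ± 0.49 in rMC-1 against primary (0.80 to 2.97, edgeR adjusted p = 0.00484). The lines differed by -4.92 ± 0.51 (edgeR adjusted p = 8.82e-06), SIRMu-1 being lower. These calls held in all 20, 19 and 20 alternatives run, with the change in SIRMu-1 between -3.49 and -2.68 and that in rMC-1 between 1.58 and 2.24 when 1 library was left out. Groups without overlap were common, at 35.3% of all genes in SIRMu-1 against primary, 70.9% in rMC-1 against primary and 63% between the lines. Car5a, the other mitochondrial member, had 8 counts in primary libraries, 3 in SIRMu-1 and 0 in rMC-1.

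The cytosolic enzymes were found in primary cultures and were rare or without counts in the lines. Bulk counts cannot tell fewer cells of a type from less RNA per cell. Car2 had 7.85, 2.69, 2.15 and 17.9 CPM in primary libraries 1 to 4 (7.64 ± 7.30, SD, n = 4), which is 199, 72, 48 and 406 counts. None of the 8 libraries of the lines had a Car2 count. With 3 counts over the group as the floor, Car2 was at least 351-fold lower in SIRMu-1 (edgeR adjusted p = 0.00153) and at least 303-fold lower in rMC-1 (edgeR adjusted p = 0.00152). Without primary replicate 4, which has 406 of the 725 counts, these bounds were 202-fold and 174-fold and the calls remained.

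Car3 had 18.1, 13.1, 7.33 and 39.7 CPM in primary libraries (19.6 ± 14.2, SD, n = 4), in the same order as Car2 (highest in replicate 4, then 1, 2 and 3). SIRMu-1 had no count, and rMC-1 had 0.0854, 0.288 and 0.184 CPM from 24 counts. Car3 was at least 908-fold lower in SIRMu-1 than in primary cultures (edgeR adjusted p = 6.77e-05). Its log2 fold change in rMC-1 was -6.65 ± 0.80 (-8.50 to -4.80, edgeR adjusted p = 0.000142), and -6.05 (edgeR adjusted p = 9.89e-05) without primary replicate 4, which has 902 of the 1874 primary counts. Between the lines it was at least 9.29-fold lower in SIRMu-1 (edgeR adjusted p = 0.00753), a call lost with the drug libraries of SIRMu-1 alone (edgeR adjusted p = 0.0569).

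Car13 had 6.23, 6.36, 1.21 and 5.82 CPM in primary libraries (4.90 ± 2.48, SD, n = 4), with replicate 3 far under the others. It had 0 counts in SIRMu-1 and a low, even level in rMC-1 of 0.228, 0.227 and 0.237 CPM (28 counts). Car13 was at least 236-fold lower in SIRMu-1 (edgeR adjusted p = 8.82e-05) and lower by -4.39 ± 0.67 on the log2 scale in rMC-1 (-5.94 to -2.83, edgeR adjusted p = 0.00056). SIRMu-1 was at least 10.8-fold under rMC-1 (edgeR adjusted p = 0.0014). Thus Car3 and Car13 kept a trace in rMC-1 that Car2 did not show. The calls of Car2, Car3 and Car13 against primary cultures held in all 20 alternatives for SIRMu-1 and all 19 for rMC-1. These genes passed the filter through the primary libraries, so this was largely fixed in advance and is no support. The pseudogene Prxl2a-ps1 overlaps Car13 in the annotation, so the counts of Car13 are less certain than those of Car2.

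Car2, Car3, Car1 and Car13 lie side by side on chromosome 2 in the annotation of GRCr8, with the ribosome biogenesis gene Rbis, E2f5 and the centriole gene Lrrcc1 beyond Car13. Car1, the red cell enzyme, had 3 counts in primary libraries, 0 in SIRMu-1 and 1 in rMC-1. The genes beyond Car13 did not follow the cluster. Rbis had 23.4 ± 5.55 CPM in primary libraries, 32.6 ± 2.18 in SIRMu-1 and 47.9 ± 7.91 in rMC-1 (SD, n = 4, 5 and 3), and the change from primary was 0.48 ± 0.16 (edgeR adjusted p = 0.0263) and 1.03 ± 0.18 (edgeR adjusted p = 0.00025) on the log2 scale. Lrrcc1 had 30.2 ± 2.42, 50.0 ± 7.16 and 188 ± 14.7 CPM, with a change of 0.73 ± 0.12 (edgeR adjusted p = 0.000498) and 2.64 ± 0.13 (edgeR adjusted p = 4.71e-08). E2f5 and the genes on the other side of Car2 were not analysed here. These neighbours were chosen by place after the levels of the cluster had been seen.

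**Figure D3:**
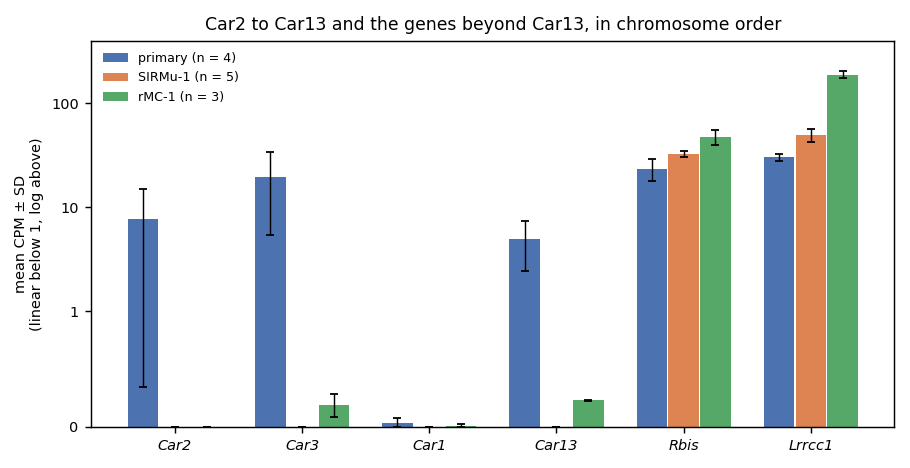
Mean level ± SD (CPM, axis linear below 1 and logarithmic above) of the carbonic anhydrase genes of the chromosome 2 cluster and of the next measured genes beyond Car13, in chromosome order. Bars are 4 primary, 5 SIRMu-1 and 3 rMC-1 libraries. Car2, Car3 and Car13 are highest in primary cultures, while Rbis and Lrrcc1 are highest in rMC-1.

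The related proteins without enzyme activity, Car8 and Car11, differed from each other. Car8, which binds the IP3 receptor of calcium stores, had 9.27, 11.0, 0.805 and 3.57 CPM in primary libraries (6.16 ± 4.78, SD, n = 4), a 628-count total to which replicate 3 gave 18. SIRMu-1 had 1 count, in replicate 2, and rMC-1 had none. The ratio of primary to SIRMu-1 was 913 over the pooled counts (exact 95% counting interval 163 to 36100, edgeR adjusted p = 0.000135), and Car8 was at least 262-fold lower in rMC-1 (edgeR adjusted p = 0.000104). These calls of Car8 held in all 20 and 19 alternatives, which is no support either, as Car8 passed the filter through the primary libraries alone. Without SIRMu-1 replicate 2, Car8 was at least 236-fold lower in SIRMu-1. An uncharacterised long noncoding RNA overlaps Car8, and another overlaps Car12, so their counts may hold reads of those genes.

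Car11 was the steadiest member in primary cultures and the only one called lower in rMC-1 without being called in SIRMu-1. Primary libraries had 15.8, 17.4, 16.8 and 10.2 CPM (15.1 ± 3.28, SD, n = 4). SIRMu-1 libraries had 10.2, 24.8, 13.1, 9.84 and 9.36 CPM (13.5 ± 6.51, SD, n = 5), which overlap the primary ones. The rMC-1 libraries had 2.56, 1.69 and 1.29 CPM (1.85 ± 0.65, SD, n = 3), under all others. Its log2 fold change was -0.16 ± 0.32 in SIRMu-1 (-0.85 to 0.53, edgeR adjusted p = 0.704) and -3.03 ± 0.41 in rMC-1 (-3.92 to -2.14, edgeR adjusted p = 4.35e-05). The lines differed by 2.87 ± 0.40, SIRMu-1 being higher (2.00 to 3.73, edgeR adjusted p = 7.17e-05). Both rMC-1 calls held in all alternatives run, and that of Car11 in SIRMu-1 stayed outside the threshold in all 20.

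Secreted Car6 was not tested, for too few counts. Primary libraries had 1.85, 0.374, 0.224 and 1.06 CPM (86 counts), SIRMu-1 libraries 0 to 0.197 CPM (16 counts), and rMC-1 3 counts, 1 in each library. Every primary library was above every library of the lines. The ratio of primary to SIRMu-1 over the pooled counts was 7.81 (exact 95% counting interval 4.55 to 14.3), and that of primary to rMC-1 was 35.9 (11.9 to 177). When all genes with a count were tested, Car6 was lower in SIRMu-1 by -2.90 (edgeR adjusted p = 0.00867) and in rMC-1 by -4.90 (edgeR adjusted p = 0.00133) on the log2 scale.

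The primary cultures were uneven across the family, and the members fell into few orders. Car5b, Car8, Car13 and Car12 were each highest in replicate 2, then 1, 4 and 3. Car2 and Car3 were highest in replicate 4, then 1, 2 and 3. Car9 was highest in replicate 3, then 2, 4 and 1. Replicate 3 was thus the lowest primary library for 6 of the 8 tested members and the highest for Car9. The share of all genes lowest there was not taken, so this count is a description. Replicate 3 was lowest for 9 of 14 bicarbonate transporter genes with counts, 7 of 18 Müller markers and 4 of 14 HIF pathway genes. Coefficients of variation ran from 21.8% for Car11 through 50.5% for Car13 and 95.5% for Car2 to 122% for Car12. In rMC-1, Car9 and Car5b varied by 5.39% and 5.31%.

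**Figure D4:**
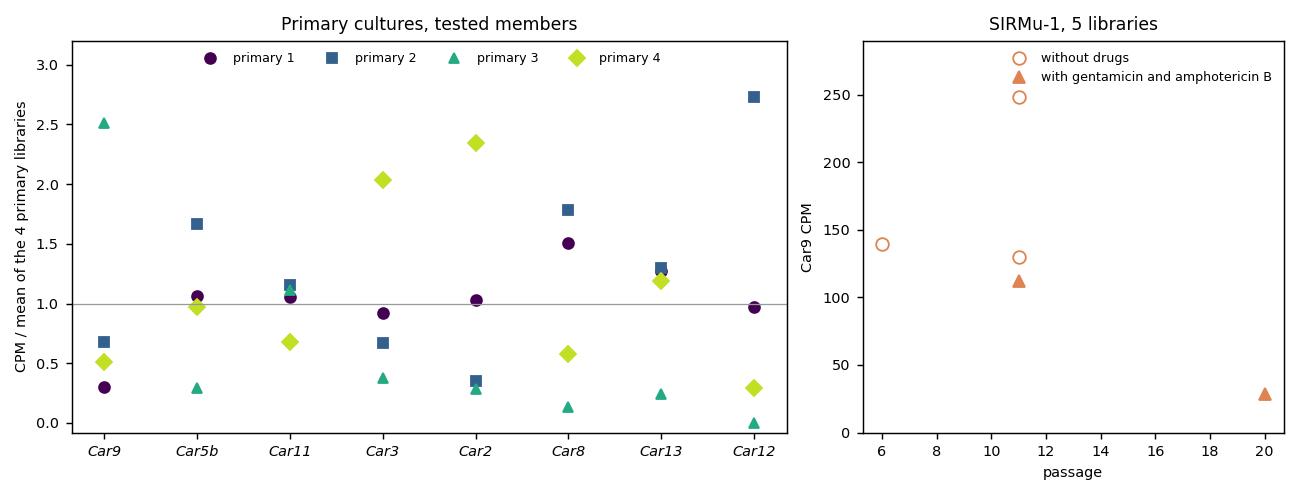
Left, level of each tested member in primary libraries 1 to 4 divided by the mean of the 4 (1 is the mean, linear axis). Right, Car9 level (CPM) in the 5 SIRMu-1 libraries by passage, with filled triangles for cultures in gentamicin and amphotericin B. Primary replicate 3 is lowest for most members and highest for Car9, and SIRMu-1 replicate 5 at passage 20 has the least Car9.

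Markers of other cell types moved with some of these levels in primary cultures, and their part in the results was not tested. Fibroblast and pericyte markers, the largest sum, came to 101000, 109000, 144000 and 40600 CPM in replicates 1 to 4, the reverse of the order of Car2 and Car3. Of these 12 genes, 7 were lowest in replicate 4 and 1 was highest there. Of the 18 Müller markers, 9 were highest in primary replicate 4, where Car2 was highest, and 5 in replicate 3, where it was lowest. The summed level of the list was 9390, 8590, 10100 and 9400 CPM, highest in replicate 3. The glutamine synthetase gene Glul (161, 113.9, 67.7 and 228.2 CPM) and the glial factor Sox2 (1.10, 0.486, 0.224 and 8.15 CPM) had the order of Car2. The glial factor Sox9 (40.3, 47.5, 83.8 and 37.1 CPM) had the reverse order, and Dkk3 was lowest in replicate 4 (771.9 CPM against 1188 to 1523). Replicate 4 also had the most Gfap (19.3 CPM against 2.10 to 3.00) and S100b (21.8 CPM against 1.76 to 4.02). The 8 oligodendrocyte markers, a cell type that also holds Car2, summed to 78.4, 78.8, 59.5 and 121 CPM, and 6 of the 8 were highest in replicate 4. Their defining gene Sox10 was highest there (5.24 CPM, 119 counts), had 3.26 CPM in replicate 3 and was at 0 in replicates 1 and 2, which had 199 and 72 counts of Car2. Olig1 (25 counts) and Olig2 (35 counts) were found in replicate 4 alone among primary libraries. A peak in replicate 4 was not particular to this list, as 6 of 10 retinal neuron markers were highest there too. Of microglia and macrophage markers 1 of 10 was highest there, and of adipocyte markers 0 of 7. For Car3, the 8 skeletal muscle markers summed to 44.6, 30.2, 13.1 and 61.1 CPM, the order of Car3 itself. Most of it came from Acta1 (22.7, 16.3, 4.56 and 51.4 CPM), which had that order, and the myosin gene Myh3 (16.1, 11.6, 5.05 and 6.08 CPM), which did not. The muscle-defining genes Myog and Myod1 had 1 count each in all primary libraries together. SIRMu-1 replicate 2 had a muscle marker sum of 48.2 CPM, mostly Myh3 (39.4 CPM), and no Car3 count. Of the 7 adipocyte markers, which summed to 85.8, 92.5, 35.6 and 33.9 CPM, nearly all was Lpl (60.4, 64.8, 20.2 and 24.3 CPM) and Pparg (25.2, 27.6, 15.2 and 9.43 CPM). Of their defining genes, Adipoq had 3 counts and Fabp4 had 4 in all primary libraries together. Erythroid markers, listed because red cells are rich in carbonic anhydrases, summed to at most 0.984 CPM in primary libraries, and Hba1, Hba2 and Gata1 were at 0 in every group.

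The lines also differed in drugs, and SIRMu-1 allowed these to be compared within a line. Of the 8 tested members, edgeR called 0 between the 2 SIRMu-1 libraries with gentamicin and amphotericin B and the 3 without, as it did 0% of all genes (433 had an unadjusted p under 0.05), and the smallest unadjusted p of a member was 0.144. DESeq2 called 4 genes, none of them a member. Car9 had 70.4 CPM on average with the drugs (112.0 and 28.9) and 172.7 without (139.6, 248.3 and 130.2). The log2 fold change was -1.29 ± 0.82 (-3.11 to 0.52, edgeR adjusted p = 0.977), an interval that holds both no change and a large decrease. It was -2.58 without SIRMu-1 replicate 3 (edgeR adjusted p = 0.364) and -0.62 without replicate 5 (edgeR adjusted p = 1), the libraries with the drugs. It was -0.39 ± 0.67 for Car5b (edgeR adjusted p = 0.989), -0.41 ± 0.44 for Car11 (edgeR adjusted p = 0.977) and 1.74 ± 1.8 for Car12 (edgeR adjusted p = 0.977), which was 0.17 to 2.55 when 1 library was left out, lowest without replicate 3. One of the drug libraries is also the only one at passage 20, so drug and passage cannot be told apart there. Against primary cultures, which all had the drugs, the drug libraries of SIRMu-1 alone left 5 members called, where 3415 of 11535 genes were called. Car2, Car3, Car8 and Car13 are among the 5 and reached the filter's minimum through primary libraries, so they had to differ.

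Carbonic anhydrases work beside transporters of bicarbonate, protons and lactate. Of 15 bicarbonate transporter genes, 8 were tested, and 3 were lower and 0 higher in SIRMu-1 than in primary cultures (median log2 fold change -0.38). Over all genes tested, 46.1% were called in that comparison, 24.4% lower and 21.7% higher. In rMC-1, 6 were lower and 0 higher (median -1.93), where 70.8% of all genes were called, 38.9% lower and 31.9% higher. Slc4a4, a sodium-bicarbonate cotransporter of Müller glia, was at 5.2 ± 2.3 CPM in rMC-1 against 39.6 ± 21.9 in primary libraries (-2.92 ± 0.46, edgeR adjusted p = 0.000152). SIRMu-1 had 39.0 ± 13.0 CPM of Slc4a4 and was higher than rMC-1 (2.90 ± 0.46, edgeR adjusted p = 0.00018), and its Slc4a7 was higher too (1.36 ± 0.15, edgeR adjusted p = 1.46e-05). This is the direction of Car11 in the lines and the reverse of Car5b. The calls of Slc4a3 in SIRMu-1 (-0.46 ± 0.16, edgeR adjusted p = 0.0369) and of Slc4a11 in SIRMu-1 (-2.06 ± 0.73, 0.0377) and rMC-1 (-2.10 ± 0.88, 0.0488) were lost in 10, 9 and 12 alternatives. The remaining gene lower in SIRMu-1, Slc4a8, had 129 counts in primary libraries, 1 in SIRMu-1 and 21 in rMC-1, and is named after its values were seen. Slc4a11 rested on primary replicate 4 (64.9 CPM against 3.31 to 12.1), the library with the most Car2, and was -0.40 and -0.45 without it.

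The list of sodium-proton exchanger genes also holds the scaffold genes Slc9a3r1 and Slc9a3r2. Of its 7 tested genes, rMC-1 had 2 lower and 1 higher against primary (median 0.0181), where 38.9% of all genes were lower and 31.9% higher. Slc9a9, an endosomal exchanger, was lower in rMC-1 (-4.97 ± 0.47, edgeR adjusted p = 2.99e-06), and the scaffold Slc9a3r1 was higher (1.73 ± 0.33, edgeR adjusted p = 0.000619). In SIRMu-1, Slc9a8 was lower (-0.54 ± 0.18, edgeR adjusted p = 0.0286), a call lost in 8 alternatives. The exchanger gene Slc9a2, lower in both lines and named after its values were seen, had 322 counts in primary libraries, 24 in SIRMu-1 and 3 in rMC-1. The list of lactate-proton transporter genes also holds the chaperone genes Bsg and Emb. Of its 5 tested genes, 3 were lower and 0 higher in SIRMu-1 (median -0.754), and 2 were lower and 2 higher in rMC-1 (median -0.824). The shares of all genes were 24.4% lower and 21.7% higher in SIRMu-1, and 38.9% and 31.9% in rMC-1. The lactate exporter gene Slc16a3 had 2874 counts in primary libraries, 2 in SIRMu-1 and 23 in rMC-1, and is named after its values were seen. Slc16a1 was higher in rMC-1 (1.92 ± 0.29, edgeR adjusted p = 0.000114), as was its chaperone Bsg (0.58 ± 0.18, 0.0118), which was lower in SIRMu-1 (-0.77 ± 0.16, 0.00207). The SIRMu-1 call of Slc16a1 (-0.72 ± 0.26, edgeR adjusted p = 0.0375) was lost in 9 alternatives. Slc16a7 was lower in rMC-1 (-2.75 ± 0.42, edgeR adjusted p = 0.000117).

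The receptor phosphatases Ptprg and Ptprz1 carry a carbonic anhydrase-like domain outside the cell. Ptprz1 had 349 counts in primary libraries, 0 in SIRMu-1 and 1 in rMC-1 (edgeR adjusted p = 0.000214 and 0.000242), and is named after its values were seen. Ptprz1, like Slc4a8, Slc9a2 and Slc16a3 above, reached the filter's minimum through the primary libraries, so it had to differ. Ptprg was at 162 ± 56.3 CPM in primary libraries and 47.6 ± 11.3 in rMC-1 (-1.76 ± 0.28, edgeR adjusted p = 0.000168), and did not pass the threshold in SIRMu-1 (-0.61 ± 0.24, edgeR adjusted p = 0.05).

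Among the 14 tested HIF pathway genes, 1 was higher and 4 were lower in SIRMu-1 (median -0.402), and 4 were higher and 4 lower in rMC-1 (median -0.231), so the list had no common direction beside Car9. Over all genes, 21.7% were higher and 24.4% lower in SIRMu-1, and 31.9% and 38.9% in rMC-1. Vegfa was the gene higher in SIRMu-1 (0.96 ± 0.35, edgeR adjusted p = 0.0423), a call lost in 9 alternatives, and it was 0.54 without SIRMu-1 replicate 2, the library with the most Car9. Ndrg1 was lower in SIRMu-1 (-3.51 ± 0.75, edgeR adjusted p = 0.00273), a call lost in 2 alternatives (file-name codes summed, and drug libraries alone), and so was the mitophagy gene Bnip3 (-1.05 ± 0.19, 0.000978). In rMC-1 the pyruvate dehydrogenase kinase Pdk1 was higher (0.84 ± 0.19, edgeR adjusted p = 0.00179), as was the glucose transporter Slc2a1 (0.74 ± 0.26, 0.0209), whose call was lost in 4 alternatives. The peptide hormone gene Adm was lower in rMC-1 (-6.81 ± 0.67, edgeR adjusted p = 3.95e-06), and so was Epas1, which encodes a HIF subunit (-2.11 ± 0.71, 0.0186), a call lost in 6 alternatives. The other genes called were named after their values were seen. The oxygen sensor gene Egln3 was lower in SIRMu-1 (-2.51 ± 0.62, edgeR adjusted p = 0.00619) and higher in rMC-1 (3.31 ± 0.66, 0.000811), the directions of Car5b. Slc2a1 was lower in SIRMu-1 (-1 ± 0.23, edgeR adjusted p = 0.00395). These SIRMu-1 calls of Egln3 and Slc2a1 were each lost in 1 alternative, with the drug libraries alone (edgeR adjusted p = 0.0565) and with codes summed (0.072). In rMC-1, Arnt was higher (0.62 ± 0.14, edgeR adjusted p = 0.00166), and P4ha1 (-1.08 ± 0.36, 0.0193) and Ankrd37 (-0.51 ± 0.21, 0.046) were lower, with their calls lost in 5 and 14 alternatives.

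The genes with profiles most like the 4 members with most counts were found by the root mean square difference of centred log2 CPM over the 12 libraries, among all tested genes outside the family. For Car11 they were Fkbp7, a chaperone of the secretory pathway (difference 0.28), and the amyloid precursor gene App (0.30). Fkbp7 stood at 63.8, 65.6 and 10.7 CPM on average in primary, SIRMu-1 and rMC-1 libraries, and App at 1970, 2000 and 300.0 CPM. For Car3 they were Colec12, a scavenger receptor (0.49), and Zfhx4 (0.56). Colec12 had 17.8 CPM in primary libraries, 0 in SIRMu-1 and 0.181 in rMC-1. For Car5b they were Khdrbs2 (0.60) and the interferon-induced Oas1b (0.65), and for Car9 they were Ly6g5b (0.68) and NEWGENE_2812 (0.69), further off than those of Car11 and Car3. The difference follows the spread of each member between libraries, so it is a description and not a test.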

How the data were processed

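PolyA RNA of 12 libraries was sequenced with a stranded kit. Per the submitters' processing notes, build rn6 was used, with edgeR 3.18.1, STAR 2.5.3a and cutadapt 1.8.1. Which annotation and strand setting served for counting is not stated there, so overlapping genes are uncertain. The authors deposited whole-number read counts per gene and library, not normalized. Reads outside genes (24.2% to 30.27% of a library), with several mapping places (9.47% to 12.3%), unmapped (1.84% to 2.54%) and ambiguous (0.152% to 0.193%) entered neither library sizes nor tests. No 2 libraries held identical counts.

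Tests used edgeR 4.0.16 in R 4.3.3, with an expression filter on the 3 groups (11321 genes tested, 5994 not), TMM factors (1.255 to 1.284 in rMC-1, 0.839 to 1.005 in the others), quasi-likelihood fit of 3 group means over 12 libraries (9 residual degrees of freedom), Benjamini-Hochberg adjustment over all genes tested, called under 0.05. For the drugs, SIRMu-1 was split (8 residual degrees of freedom). Errors on log2 fold changes are SE. Folds against groups without counts use a floor of 3 counts over the group. Counting intervals (exact Clopper-Pearson, 95%) and floors cover counting error only. Tested on simulated data for SIRMu-1 against primary (11156 genes), the fit recovered 83% of 2-fold and 100% of 4-fold changes with 9 false calls. The simulation gave every gene the same spread and placed changes only in genes over 1 CPM on average. Members varied by 21.8% (Car11) to 122% (Car12) in primary cultures, so these figures are a check of the fit and not its power for the members.

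Alternatives were edgeR's RLE factors, library totals, no filter, a filter of over 1 CPM in 3 libraries, DESeq2 1.42.0, a replicate block, libraries sharing a file-name code summed, SIRMu-1 drug libraries alone, and each library left out. File names carry a code of unstated meaning. In the primary and rMC-1 groups replicates 1 and 2 have the same code, and in SIRMu-1 replicates 1 to 3 have one and replicates 4 and 5 another.

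Every member is named. From each pathway list, up to 2 called genes per direction and comparison with the largest change were named, at a mean log2 CPM of at least 2. A called gene of these lists is not reported here. The members and lists were chosen with earlier results of these data known. Further marker lists (retinal pigment epithelium, neurons, photoreceptors, microglia, endothelium) summed in primary libraries to 11.4 to 19.6, 128 to 694, 0.561 to 4.11, 3.71 to 15.8 and 2.86 to 11.7 CPM.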

Additional observations from a re-analysis of the deposited data

Results flagged for a closer look

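Within a group of 4 or 5 libraries, a library was set apart where its gap to the nearest other library exceeded Dixon's 95% critical value for the range of the group. For normally distributed values chance does this in about 1 of 20 groups. CPM that are skewed or near 0 need not keep that rate, so no excess over chance can be read from the number found. Of the 17 groups of member levels that were examined, 5 had such a library. Car9 in primary cultures had its highest library in replicate 3, at 130.1 CPM. Car13 had its lowest primary library in the same replicate, at 1.21 CPM. Car5b in SIRMu-1 had its highest library in replicate 1, at 5.58 CPM, the culture of the lowest passage. Car11 in SIRMu-1 had its highest library in replicate 2, at 24.8 CPM. Car8 in SIRMu-1 was set apart in replicate 2 by 1 count, at 0.0315 CPM.

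The change of Car5b from primary cultures differed between the lines, by -4.92 on the log2 scale in SIRMu-1 less rMC-1 (edgeR adjusted p = 8.82e-06). All 5 SIRMu-1 libraries lay under the 4 primary libraries and all 3 rMC-1 libraries above them.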

How the results depend on the processing

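Over single members, 477 values under an alternative kept direction and side of the threshold, 14 lost it, 4 gained it and 5 turned sign. The sign turned for Car12 in rMC-1 against primary without primary replicate 3 (-0.22), primary replicate 4 (-0.11) or rMC-1 replicate 3 (-0.14), with a range of -0.22 to 1.41 over single libraries left out. In the drug comparison it turned for Car5b without SIRMu-1 replicate 1 (range -0.69 to 0.43) and Car11 without SIRMu-1 replicate 2 (-0.68 to 0.17). None of these was past the threshold. With the drug libraries alone, 3 members were called in SIRMu-1 against rMC-1 in place of 5, where 5545 of 11535 genes were called. With 1 library left out, members called numbered 5 to 8 in SIRMu-1 against primary (6 in full), 6 to 8 in rMC-1 against primary (7 in full), 5 to 6 between the lines (5 in full) and 0 for the drugs. Where a left-out library made a group smaller, Car6 could pass the filter and is in those counts. Over all genes, SIRMu-1 against primary had 5220 calls, 3173 with file-name codes summed and 3415 with the drug libraries alone. The cause was not tested, beyond the smaller number of samples in both. With 1 library left in a group, it was assumed to vary like the others.

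Replicate numbers are shared between groups. Same-numbered libraries of different groups had correlations of their deviations of -0.063 to 0.098 (other pairs -0.156 to 0.127), so the numbers do not pair the libraries. With the replicate number as a block, 6, 7 and 5 members were called, the counts without it, though Car9 in SIRMu-1 passed the threshold (1.92, edgeR adjusted p = 0.0308) and Car12 there did not. Depth limits Car6, Car12 and Car14, with at most 228 counts in all libraries.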
